A study of Anopheles gambiae with 5 samples.

Results

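The 7 neighbouring trypsin genes AGAP008290 to AGAP008296 were examined on chromosome arm 3R of Anopheles gambiae, the main African vector of human malaria. They were chosen by identifier, and all 7 were present among the 13102 annotated genes off the mitochondrion in the assembled transcripts. The samples came from strain Kisumu, from adult females aged 6 to 8 days that were kept on sugar solution, and no blood meal of the dissected females is named in the sources used here. Chromatin from pooled midguts gave 1 library for the acetylation of lysine 27 of histone H3 (H3K27ac), 1 for its trimethylation (H3K27me3) and 1 input library, and RNA came from a pool of about 25 midguts and a pool of about 50 salivary glands. Each library stands alone, so no difference between animals could be tested, and every value here is a position, length, count or caller's score from a single library. Reads were not used here, so the depth behind a peak is unknown. Because midguts were pooled and hold several cell types, marks that lie in the same cells and marks that lie in different cells cannot be told apart.

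Trypsins are serine proteases that cut proteins after lysine or arginine. In mosquito females they are secreted by the midgut as inactive precursors and digest the proteins of a blood meal, and some trypsins of A. gambiae are made before feeding while others appear only after it. H3K27ac is a mark of active promoters, enhancers and transcribed genes, whereas H3K27me3 is laid down by Polycomb complexes and is found over silent genes, as known best from Drosophila. The files give the 7 genes identifiers but no further names, so which of them are made early or late was not assigned here. That each encodes a trypsin of blood digestion is taken from the list that named them and was not checked, since sequences and expression were not used.

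The trypsin genes lay close together and were built alike. In the AgamP4 assembly they ran from 8624615 to 8635726 on 3R, a span of 11112 bp in which no other annotated gene was placed. Gene bodies filled 60.1% of this span. Gene length ran from 833 to 1142 bp around a median of 937 bp, while all annotated genes had a median of 2262.5 bp, and each trypsin gene was a single exon without an intron, as were 13.6% of all annotated genes. The 6 gaps between neighbours were 219 to 1219 bp long, and their median of 765 bp compares with 2465.5 bp over all gaps between neighbouring annotated genes. Transcription ran on the plus strand in 6 of the genes and on the minus strand in AGAP008293 alone, which lies in the middle of the row.

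**Figure D1:**
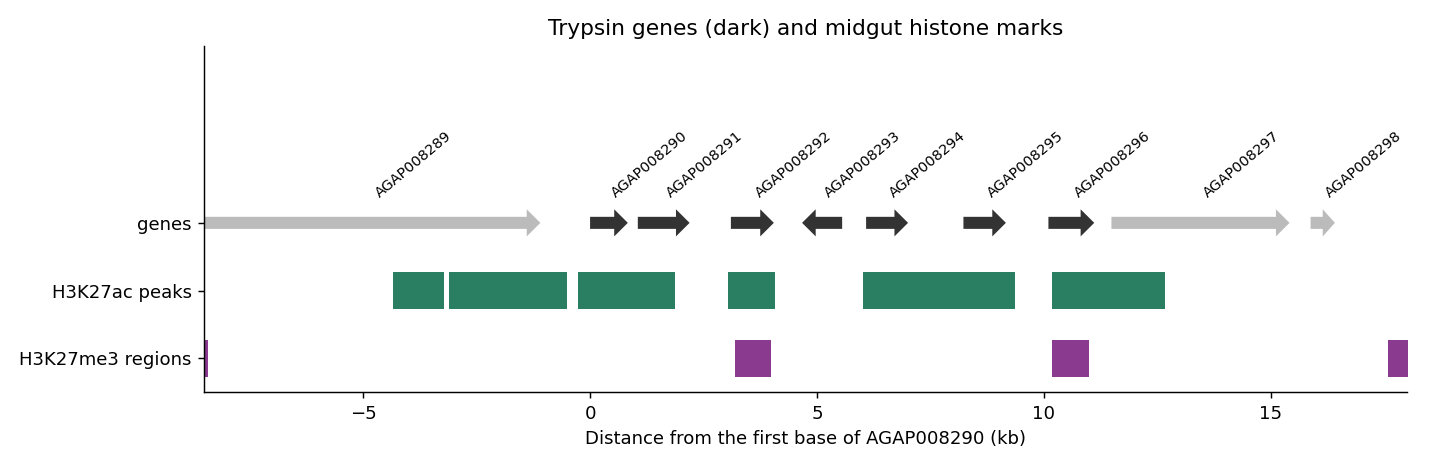
Map of the trypsin genes (dark arrows, pointing in the direction of transcription), their annotated neighbours (grey arrows) and the called regions of each mark, drawn to scale against the distance in kb from the first base of AGAP008290. Of the H3K27ac peaks (green), 4 lie on the trypsin genes and leave AGAP008293 uncovered, while both H3K27me3 regions of the row (purple) lie within H3K27ac peaks, on AGAP008292 and AGAP008296.

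H3K27ac covered most of the trypsin row. A peak lay in the body of 6 of the 7 genes (85.7%), while 35.3% of all annotated genes held such a peak. Of the genes of the row, 4 lay whole inside a peak, as did 5.18% of all annotated genes. In all, 64.8% of the span was under H3K27ac, with 80.6% of the gene bases and 40.9% of the bases between genes. The median share of the body under H3K27ac was 100% over the 7 genes, 0% over all annotated genes and 42.9% over those annotated genes that held a peak. A short gene fits inside a peak more easily than a long one. The median H3K27ac peak was 2048 bp long, while the median gene was 937 bp on the row and 2262.5 bp over all annotated genes. Whole cover and body share were not compared among genes of similar length, so what gene length adds to these differences was not tested. Annotated genes of a single exon and of a length within that of the trypsin genes held H3K27ac in 22.7% of 194 cases, the trypsin genes included.

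AGAP008290 and AGAP008291, the leading pair on the plus strand, shared 1 H3K27ac peak. It reached from 8624347 to 8626482, and its score of 101 was higher than 23.2% of the scores in the H3K27ac list. AGAP008290, from 8624615 to 8625447, lay whole inside it, and the peak began 268 bp before its start. The 219 bp that separate the pair were also covered throughout. AGAP008291, from 8625667 to 8626808, is the longest gene of the row, and 816 of its 1142 bp (71.5%) were covered. Its start was inside the peak, and the last 326 bp of the gene lay beyond the edge. No H3K27me3 region touched either gene, and the nearest began 993 bp past the end of AGAP008291.

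AGAP008292, from 8627718 to 8628665, had a peak of each mark of its own. Its H3K27ac peak ran from 8627649 to 8628695 and exceeded the gene by 69 bp on the side of the start and 30 bp on the side of the end. The sheared chromatin fragments of the study were longer than these distances. How finely the edges of H3K27ac peaks place the mark, here or at the other genes, was not examined. At 1047 bp this peak was the shortest of the 4 on the row, and its score of 171 was higher than 38.9% of its list. Within it lay an H3K27me3 region of 799 bp, from 8627801 to 8628599, which covered 84.3% of the gene. The H3K27me3 region began 83 bp after the start of the gene and ended 66 bp before its end. All 799 bp of it were also under H3K27ac.

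AGAP008293, from 8629287 to 8630170, was the gene of the row without a peak. It lay in a space of 1926 bp between H3K27ac peaks, the widest such space on the row, and neither mark touched its body. Its start is at 8630170, and the nearest base under H3K27ac was 452 bp away, at the edge of the peak over AGAP008294. That neighbour is transcribed away from it, and the 2 starts are 528 bp apart. From the end of AGAP008293 the nearest H3K27ac base was 592 bp away and the nearest H3K27me3 base 688 bp away. The authors dropped reads that fell in repeated sequence, and how much of each gene the remaining reads could reach was not examined, so the empty stretch is not read as absence of a mark.

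AGAP008294 and AGAP008295 were held whole by a single H3K27ac peak, the longest of the row at 3357 bp. It ran from 8630622 to 8633978 with a score of 199, higher than 43.9% of its list. AGAP008294, from 8630698 to 8631623, started 76 bp inside the edge. AGAP008295, from 8632843 to 8633779, ended 199 bp before the other edge. The gap of 1219 bp between them, the longest gap of the row, was covered throughout. H3K27me3 was not called on either gene, and its nearest region lay 1022 bp past the end of AGAP008295.

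AGAP008296, from 8634716 to 8635726, closes the row and again carried both marks. Its H3K27ac peak ran from 8634802 to 8637290 and covered 925 of its 1011 bp (91.5%), but it began 86 bp after the start of the gene. With a score of 541 it stood above 71.4% of its list and was the highest of the 4 peaks. It reached 1564 bp past the gene, over the start of AGAP008297. An H3K27me3 region of 799 bp, from 8634801 to 8635599, covered 79.0% of AGAP008296, and 798 bp of it were under H3K27ac. This region began 85 bp after the start and ended 127 bp before the end.

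**Figure D2:**
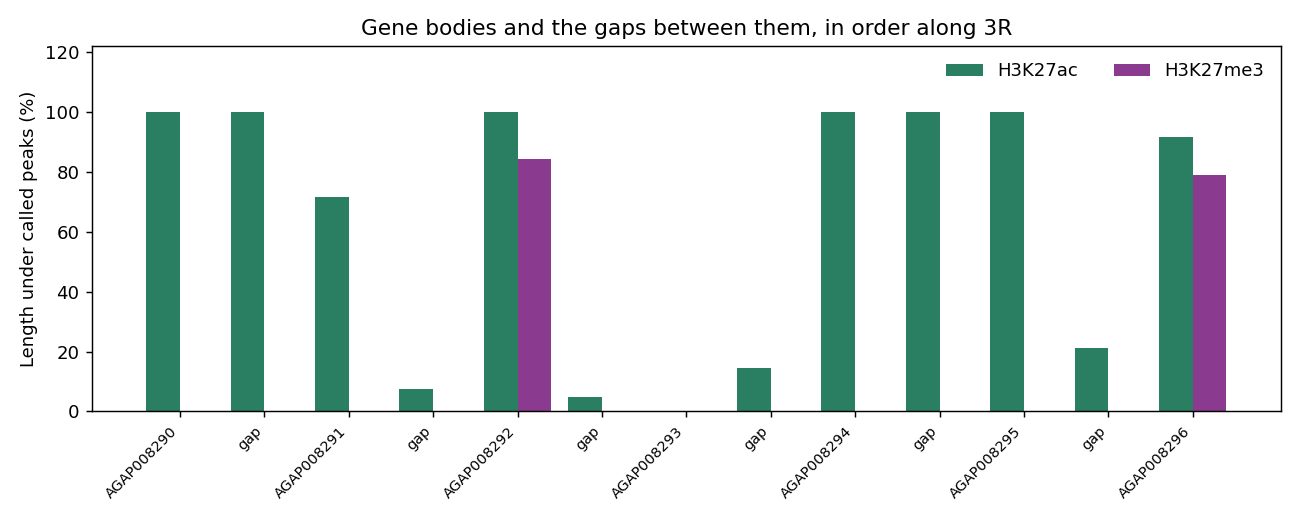
Share of length under called peaks (percent) for each trypsin gene and each gap between neighbours, in order along 3R, with H3K27ac in green and H3K27me3 in purple, from 1 library each. H3K27ac is at or above 71.5% in 6 genes and at 0% in AGAP008293, and H3K27me3 is at 84.3% in AGAP008292, at 79.0% in AGAP008296 and at 0% elsewhere.

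Up to 800 bp from the starts, H3K27ac lay on more genes on the transcribed side than upstream. A peak came within 200 bp of the start in 6 of the 7 genes, against 31.5% of all annotated genes. The start itself was inside a peak in 5, the exceptions being AGAP008293 and AGAP008296, and in 28.3% of all annotated genes, each taken at its outermost start. Of the window of 401 bp around the start, 100% was covered in AGAP008290, AGAP008291 and AGAP008295, 69.1% in AGAP008294, 67.3% in AGAP008292 and 28.7% in AGAP008296. At 400 bp upstream 2 of the 7 genes were under H3K27ac, and at each step of 100 bp from 100 to 800 bp downstream the count was 6. Over all annotated genes the share was 18.6% at 400 bp upstream and 28.9% at 100 bp downstream. Farther out this order did not hold. At 1000 bp downstream 4 of the 7 genes were under H3K27ac, against 21.9% of all annotated genes. At 1000 bp upstream the count was 5, against 16.9%. Of these 5, the peak ran on from the start without a break in AGAP008291 and AGAP008295. In the other 3 the upstream mark belonged to another peak, on or beside a neighbouring gene.

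H3K27me3 came within 200 bp of the start in AGAP008292 and AGAP008296, 2 of 7 genes, against 21.3% of all annotated genes. It did not reach the start base of either. Both regions kept to the transcribed side, with 118 bp and 116 bp of the start window covered. All H3K27me3 starts in the list are multiples of 200 bp, so the edges of a region follow a fixed grid and are known no more finely than that.

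**Figure D3:**
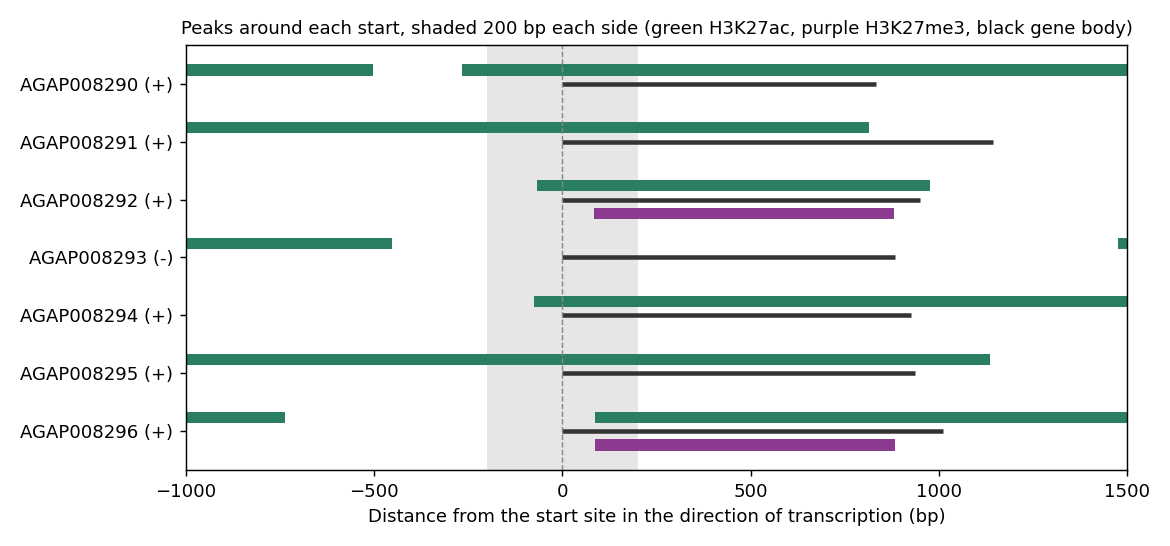
Called peaks around the start of each trypsin gene, plotted by distance in bp in the direction of transcription and starting 1000 bp upstream, with H3K27ac in green, H3K27me3 in purple, the gene body as a black line and 200 bp on each side of the start shaded. H3K27ac crosses the start in 5 genes, begins 86 bp after it in AGAP008296 and is 452 bp away in AGAP008293, and both H3K27me3 regions begin after the start.

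Between neighbours, every one of the 6 gaps held some H3K27ac and none held a called H3K27me3 region. Among all gaps between neighbouring annotated genes, 32.1% held H3K27ac and 33.7% held H3K27me3. Among gaps of 219 to 1219 bp these shares were 37.8% and 11.9%. The 6 gaps of the row fell into 2 kinds. Those between AGAP008290 and AGAP008291 and between AGAP008294 and AGAP008295 were covered whole, while the other gaps were covered for 4.83% to 21.3% of their length, only by the edges of peaks that belong to a gene. The lowest share was that of the gap of 621 bp between AGAP008292 and AGAP008293, whose genes end toward each other. The gap of 527 bp between the divergent starts of AGAP008293 and AGAP008294 was covered for 14.4%, all of it on the side of AGAP008294.

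As called, H3K27me3 on the row lay only inside gene bodies. The edges of its regions were 66 to 127 bp inside the genes, which is less than the grid of 200 bp. Whether the mark reached the gaps is therefore not known. It touched 2 of the 7 genes (28.6%), a share close to the 28.4% of all annotated genes, and the 194 single-exon genes of similar length held it in 36.1% of cases. No trypsin gene lay whole inside a region, as 9.44% of all annotated genes did. Of the span of the row, 14.4% was under H3K27me3. All of that but 1 bp was also under H3K27ac.

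Bases under both marks at once were rare in the deposited lists. They occurred in the bodies of 96 annotated genes (0.733%), and AGAP008292 and AGAP008296 are 2 of these. At least 50% of the body was under both marks in 21 genes (0.160%), 8 of them on 3R, and again both trypsin genes were among them, with 84.3% and 78.9% of the body. Among these 21 genes there were 2 pairs within 10000 bp of each other, one of which is the trypsin pair. Seen from the other side, 152 of the 12939 H3K27me3 regions (1.17%) shared any base with an H3K27ac peak, and 18 regions (0.139%) had at least 99% of their length under one. Those 18 regions were 599 to 6399 bp long with a median of 1199 bp, and both trypsin regions belong to them. The 2 trypsin genes with both marks are not neighbours, and 6201 bp with no H3K27me3 lay between their regions. Counts of bases under both marks, with their cuts of 50% and 99%, were not among the planned results. How rare the trypsin genes appear depends on these cuts. The share of a body under a peak can also depend on gene length, which was not matched here.

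The H3K27me3 regions on the trypsin genes had low scores. The region on AGAP008292 scored 94, higher than 8.23% of its list, and that on AGAP008296 scored 137, higher than 22.9%. The median score of the H3K27me3 list was 248. Their length of 799 bp was also low, since 8.32% of all H3K27me3 regions were that short or shorter. Scores were not adjusted for length, so whether these regions scored low because they were short was not tested. Their scores are therefore not read as a weak signal per base. For H3K27ac, 3 of the 4 peaks on the row scored below the median of 244 of their list. With each list limited to scores from its median upward, H3K27ac was left in 1 trypsin gene, AGAP008296, and in 22.1% of all annotated genes. The peak left there also reaches 1564 bp past AGAP008296, over the start of AGAP008297, so its score does not belong to the trypsin gene alone. H3K27me3 was then left in 0 trypsin genes and in 21.1% of all annotated genes. The scores come from different programs and cannot be compared between the marks.

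**Figure D4:**
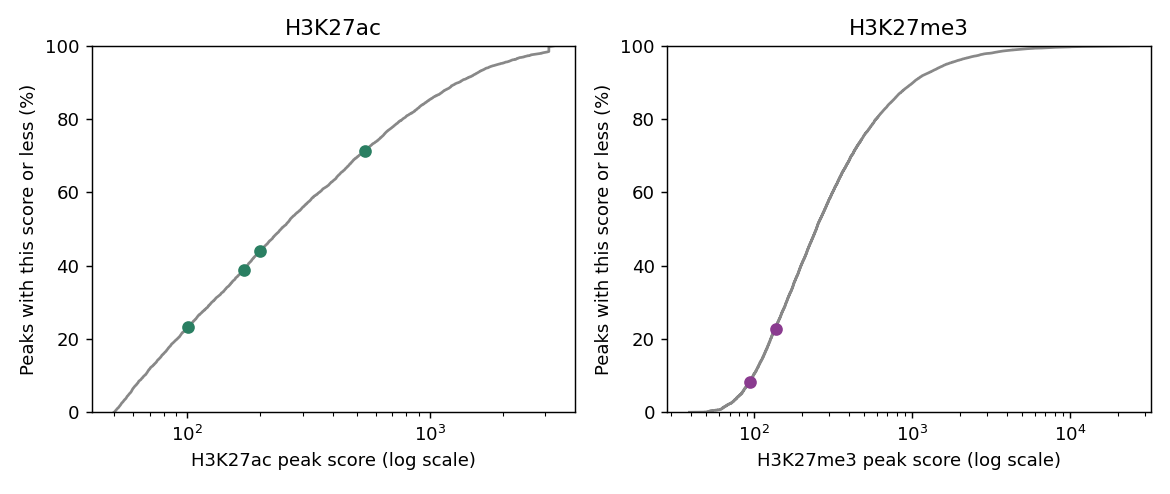
Share of all peaks with a given score or less (percent) against the score on a log axis, for the 6639 H3K27ac peaks and the 12939 H3K27me3 regions (grey lines), with those on the trypsin genes as points. The H3K27ac points lie at 101, 171, 199 and 541, and the H3K27me3 points at 94 and 137, in the lower part of their list.

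H3K27ac ran on beyond the row on both sides, 1564 bp past AGAP008296 and farther on the side of AGAP008290. On the side of AGAP008290, the next H3K27ac peak ran from 8621508 to 8624113 with a score of 939, above each of the 4 peaks on the trypsin genes, and ended 501 bp before AGAP008290. It held the second exon of AGAP008289, a gene of 2 exons whose role the files do not give. A further peak lay 103 bp beyond it. Chained where less than 2000 bp separated them, 6 peaks made a block of 17026 bp, from 8620265 to 8637290, of which 75.0% was under H3K27ac. No other H3K27ac peak followed for 21138 bp on one side and 69559 bp on the other. Chained in the same way, 35 of 4490 blocks had 6 peaks or more and 90 were as long or longer, and the median block was a single peak. The cut of 2000 bp was not among the planned results and was not varied. It lies just above the widest space on the row, 1926 bp over AGAP008293, and a cut below that would split the block. How long and how rare the block appears depends on this cut.

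Long H3K27me3 regions lay beyond the block on both sides. One of 8599 bp, scoring 955, ended 4065 bp before the block. The other, of 8799 bp and scoring 660, began 4910 bp after it, and neither shared a base with H3K27ac. AGAP008289 spans the change from mark to mark: its first exon, from 8615286 to 8615785, lay whole under H3K27me3 and its second exon, from 8622620 to 8623519, whole under H3K27ac. On the other side, AGAP008297 had its start and first exon inside the H3K27ac peak shared with AGAP008296, and 30.2% of its body was covered. AGAP008298, the next gene, had neither mark.

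The 20 annotated genes around the row, 10 on each side, were counted in the same way. They held H3K27ac in 5 bodies and H3K27me3 in 10, and 7 held neither. Over all annotated genes, 35.3% held H3K27ac and 28.4% held H3K27me3. The genes on the side of AGAP008290 held H3K27me3 in 7 of 10 cases and those on the other side in 3 of 10. No gene of the 20 had bases under both marks at once, none lay whole inside an H3K27ac peak and none had a single exon. Over all annotated genes these shares were 0.733%, 5.18% and 13.6%. Shared bases and whole cover are thus uncommon in general, and their absence among 20 genes says little. The difference between these genes and the trypsin genes was not tested, since neighbours share peaks and chromatin and each mark has 1 library.

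**Figure D5:**
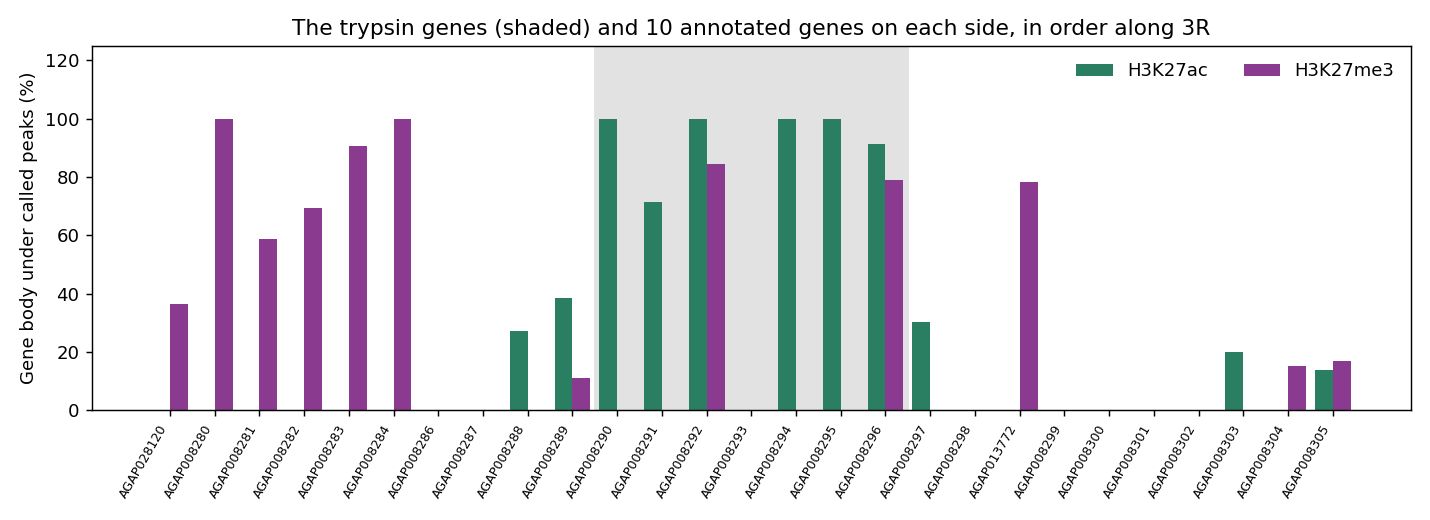
Share of the gene body under called peaks (percent) for the 7 trypsin genes (shaded) and the 10 annotated genes on each side, in order along 3R, with H3K27ac in green and H3K27me3 in purple. H3K27ac is highest within the row, where AGAP008290, AGAP008292, AGAP008294 and AGAP008295 reach 100%, and H3K27me3 is highest in the genes before it, where AGAP008280 and AGAP008284 reach 100%.

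The assembled transcripts held nothing on the row beyond the annotated genes. Each of the 7 trypsin genes was represented by 1 transcript of class "=", the class CuffCompare gives to a match with an annotated transcript, and each had 1 exon. No alternative isoform (class "j") was assembled for any of them, while 28.2% of all annotated genes had one. An isoform sharing splice junctions cannot arise from a gene without an intron, so this count says little about the row. No antisense transcript (class "x") was assembled over the row, as for most annotated genes, of which 1.56% had one. The nearest antisense transcript was 190825 bp away. AGAP008293, on the minus strand, did not overlap any of its neighbours. No intergenic transcript (class "u") lay within the row either, and the nearest, from 8650328 to 8693360, began 14601 bp after it. Midgut and salivary gland RNA are merged in this set and it gives no abundance. A listed transcript therefore does not show whether, in which tissue or how strongly a trypsin gene was transcribed.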

How the data were processed

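Midgut ChIP-seq peaks of 2 histone marks and the transcripts merged from midgut and salivary gland RNA were analysed. For ChIP, the authors aligned reads with Bowtie 1.0.0 to the AgamP4 assembly, leaving out repetitive reads, and compared each mark with the input. The deposited H3K27ac file holds a score per peak from MACS (1.4 in the submitters' processing notes), and the deposited H3K27me3 list a score per region from SICER (version not given in the sources used here). RNA reads were mapped with TopHat2 2.0.10, assembled with Cufflinks 2.1.1 and compared with the annotation by CuffCompare.

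Genes were taken from class "=" transcripts, then "j", then "o". A mark was counted where at least 1 bp was shared, and promoters were 200 bp on each side of a start, as in the study. Listed starts were raised by 1, so positions count from 1, and a length is listed end minus listed start. Overlap functions were checked on simulated intervals. Python 3.11.15, numpy 2.4.6 and matplotlib 3.10.9 were used. The genes named were the 7 trypsin genes, the next annotated gene on each side and, of the 10 annotated genes on each side, those holding the nearest peaks; others were named after their values were seen. The genes and lists were chosen with earlier results of these data known. Names from the RefSeq table were not used, since it carries none of the files' identifiers, so other digestive proteases were not counted. Sequences, expression and the input library were not analysed here. The alternatives were stricter or merged peaks, other overlaps, promoters, flanks and gene models.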

Additional observations from a re-analysis of the deposited data

How the results depend on the processing

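No paired analysis was possible because each mark has 1 library. Of 31 alternatives, 18 kept the count within 1.5 times, or the share of the span within its 95% Wilson interval, and 13 did not. That interval takes every base of the span as independent, which neighbouring bases are not, so it is too narrow and says nothing about animals. With each list limited to scores from its median upward, H3K27ac was in the body and at the start of 1 trypsin gene (22.1% and 19.1% of all annotated genes), in 0 gaps (19.9% of all gaps) and over 8.32% of the span. That gene was AGAP008296, whose peak also covers the start of AGAP008297. H3K27me3 was then in 0 bodies (21.1% of all annotated genes), at 0 starts (16.1%) and over 0% of the span. This limit did not adjust scores for the length of a peak or region. Peaks closer than 1000 bp to each other, merged, put 72.2% of the span under H3K27ac. The span widened by 10000 bp on each side was 41.1% under H3K27ac and 21.6% under H3K27me3. With genes widened by 1000 bp, H3K27me3 was counted in 4 trypsin genes and in 33.0% of all annotated genes. Where the start base itself had to be inside a peak, a setting chosen after seeing the data, H3K27me3 was at 0 trypsin starts and at a start of 19.6% of all annotated genes. Transcripts with more than 1 exon numbered 0. Depth per peak is unknown and limits how far a missing peak can be read.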
